A study of Mus musculus with 12 samples.

Results

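The excitatory amino acid transporters (EAATs) carry glutamate from outside a cell to its inside, and TFB-TBOA blocks all members of the family. The effect of this panEAAT inhibitor on gene expression was measured by bulk RNA-seq in neural stem cells (NSCs) cultured from the dentate gyrus (DG) of adult wild-type C57Bl6J mice. Libraries were chosen by their treatment label, 6 of the 12 libraries of the series with the inhibitor and the other 6 without it. The 4 groups were TFBTBOA-Glut (1 µM TFB-TBOA followed after 15 min by 100 µM glutamate), Veh-Glut (vehicle and 100 µM glutamate), TFBTBOA-Veh (1 µM TFB-TBOA and vehicle) and Veh-Veh (vehicle only). Each group was 3 wells of passage 4 cells, harvested after 48 h of growth in medium with B27, GlutaMAX, epidermal growth factor and basic fibroblast growth factor. All cells therefore had a glutamine source and mitogens, and "without glutamate" means without added glutamate. Replicates are wells and not separate animals, so p-values measure the spread between wells, which may be technical. All 4 groups entered the same fit, in which the inhibitor effect was averaged over the glutamate states and glutamate was a covariate.

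Adult DG NSCs are glia-like cells that can rest outside the cell cycle or divide to renew themselves and give rise to neurons. They express EAAT1 and, at a lower level, EAAT2, which are also the main glutamate transporters of astrocytes. Each molecule of glutamate enters with sodium ions and feeds pathways that make glutamine, other amino acids and energy, so a blocked transporter alters what reaches the cell as well as what stays outside it.

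Values are normalized counts, reads per gene divided by a size factor for each library, and were compared as log2(normalized count + 1) in the 14266 genes of 50600 with a mean of at least 10. On this scale the change of a weakly expressed gene is understated. Normalized counts summed to 14900486 to 15411418 per library, and Pearson's r between replicates was 0.970 to 0.975 (across genes). The cultures expressed the markers of NSCs, whose summed level was 111241 to 118857 normalized counts with the inhibitor and 104220 to 115639 without it. Of these marker genes 13 of 16 passed the filter and none passed the test, with 2 at an unadjusted p under 0.05. Markers of other neural cells were expressed too. Oligodendrocyte lineage markers summed to 46929 to 50496 normalized counts with the inhibitor and 46105 to 57332 without it. Neuroblast and neuron markers summed to 16856 to 18473 with the inhibitor and 15996 to 18875 without it. Microglial markers summed to 21.2 to 52.8 normalized counts with the inhibitor and 11.8 to 58.3 without it, with 1 of 12 past the filter and 4 at 0 in every library. Endothelial, pericyte and fibroblast markers summed to 106 to 210.0 with the inhibitor and 61.5 to 162 without it, with 4 of 16 past the filter, none past the test and 1 at an unadjusted p under 0.05.

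Averaged over both glutamate states, 555 genes were higher with the inhibitor (3.89% of those tested) and 425 were lower (2.98%), together 6.87% (limma, adjusted p under 0.05). The higher genes moved further. Their median log2 fold change was 0.49, with 95 of 555 at a change of at least 2-fold, and that of the lower genes was -0.30, with 4 of 425 that far. The higher genes were also less abundant, with a median level of 582 normalized counts against 1799 for the lower genes. In bulk RNA, fewer cells of a type and less RNA per cell cannot be told apart. All 6 libraries with the inhibitor lay above all 6 without it in 321 of the 555 higher genes, where 2.55% of all genes tested did so. They lay below in 208 of the 425 lower genes, against 1.73% of all genes tested. Calls and overlap use the same libraries, so the calling in part fixes these counts. The median shift of all genes was 0.0037 on the log2 scale. With Veh-Glut replicate 2 or 3 left out the lower genes numbered 273 or 257, and the higher genes stayed within 418 to 551 whichever library was left out.

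A change shared by both glutamate states had to pass in each state separately, by the larger p of the inhibitor effect with glutamate (TFBTBOA-Glut over Veh-Glut) and that without glutamate (TFBTBOA-Veh over Veh-Veh). This held for 57 higher genes (0.400% of those tested) and 4 lower genes (0.0280%, limma, adjusted over all genes). The state-specific effects share no library. Among the 57 genes the median log2 fold change was 0.87 with glutamate and 0.72 without it, and among the 4 genes it was -0.39 and -0.35. In none of the 61 did the groups with and without the inhibitor overlap, which their selection on the same libraries in part fixes. None of the 61 passed the test for a difference between the states (smallest adjusted p = 0.117 from limma). With 3 wells per group this does not show equal effects. The unadjusted p for a difference was under 0.05 in 8 of the 57 and 0 of the 4, against 991 of all 14266 genes. The count of 57 was lowest when a library without glutamate was left out. It was 27, 31 and 28 without Veh-Veh replicate 1, 2 or 3 and 24, 32 and 32 without TFBTBOA-Veh replicate 1, 2 or 3, against 40 to 52 when any 1 library given glutamate was left out. The 4 lower genes numbered 4 without TFBTBOA-Glut replicate 3, 2 without TFBTBOA-Glut replicate 2 or TFBTBOA-Veh replicate 2, 1 without Veh-Glut replicate 1 or Veh-Veh replicate 3, and 0 on omitting each of the other 7 libraries in turn.

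**Figure D1:**
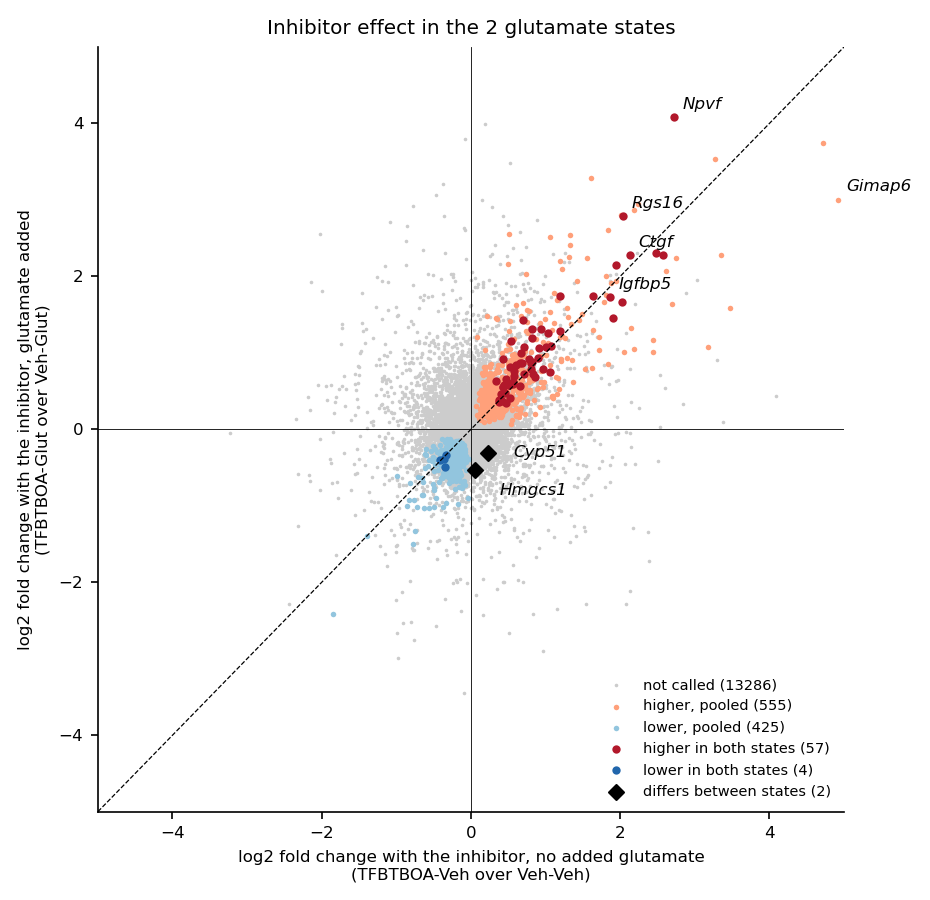
Log2 fold change with the inhibitor in the absence (horizontal axis) and presence (vertical axis) of added glutamate, for each of 14266 genes. The 57 genes higher in both states and the 4 lower in both lie on the same side of 0 on both axes, which their selection requires. Hmgcs1 (-0.54 with and 0.05 without glutamate) and Cyp51 (-0.31 and 0.23), picked by the test for a difference, lie on opposite sides.

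Among all 980 genes called on the pooled effect, the sign was the same in the 2 states, which the call on their average in part fixes. An unadjusted p under 0.05 in each state was reached by 407 of the 555 higher and 279 of the 425 lower genes. The state with glutamate alone reached it in 97 higher and 134 lower genes, and the state without glutamate alone in 51 and 12. The effect was larger with glutamate in 357 of the 555 and 345 of the 425. The difference between the states had an unadjusted p under 0.05 (limma) in 67 of the 555 and 55 of the 425, against 991 of all 14266 genes. Over all 14266 genes, which are not independent replicates, the effects with and without glutamate had a Pearson's r of 0.263. Only Hmgcs1 and Cyp51, 2 enzymes of cholesterol synthesis, passed the test for a difference between them (0.0140% of genes tested). That count was 0 without the filter on low values and 14 with a replicate block. It was 2 on omitting TFBTBOA-Glut replicate 3 or replicate 1 of Veh-Glut, 1 on omitting Veh-Veh replicate 3 and 0 on omitting each of the other 9 libraries in turn. Neither was called on the pooled effect. Hmgcs1 had a pooled log2 fold change of -0.24 (adjusted p = 0.101) and Cyp51 of -0.04 (adjusted p = 0.822), so their pooled values average unlike effects.

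Ctgf and Igfbp5, both coding for secreted proteins, had the smallest p-values of the whole fit. Ctgf (chromosome 10 of GRCm38, 24595442 to 24598683) codes for connective tissue growth factor, a matrix-associated protein. Its libraries lay between 834 and 1052 normalized counts with the inhibitor (median 939), against 167 to 226 without it (median 209). The lowest library with the inhibitor was thus well above the highest without it, and the fold was 4.61 (95% interval 4.06 to 5.24, limma adjusted p = 1.38e-10). Ctgf had a log2 fold change of 2.27 with glutamate and 2.14 without. Igfbp5 (chromosome 1, 72858065 to 72874865) codes for a binding protein of insulin-like growth factors. It was at 1402 to 1775 normalized counts with the inhibitor, against 439 to 531 without it, with log2 fold changes of 1.73 with glutamate and 1.86 without (pooled 1.80, standard error 0.0712, adjusted p = 1.38e-10).

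The next genes by p-value differed in kind and in size. Gmpr, an enzyme that converts GMP to IMP in purine metabolism, was at 1222 to 1644 normalized counts with the inhibitor and 485 to 663 without it (log2 fold change 1.24, adjusted p = 6.56e-07). Ptrf, the caveolar coat protein cavin-1, was at 3362 to 3519.8 with the inhibitor and 1831 to 2346 without it (0.76, adjusted p = 7.98e-07). Vwa1, a matrix protein with a von Willebrand factor A domain, had a log2 fold change of 0.88 and Pcp4l1 of 0.85 (adjusted p = 1.57e-06 each). Sptan1, a spectrin of the membrane skeleton, changed little in fold (1.38, 95% interval 1.30 to 1.46) at a high level, 20984 to 23321 normalized counts with the inhibitor against 15481 to 16766 without it. Tgfbr2, a receptor of transforming growth factor beta, was at 1584 to 1873 normalized counts with the inhibitor and 1053 to 1197 without it (log2 fold change 0.61, adjusted p = 1.33e-05). None of these calls was lost when any 1 library was left out of the pooled fit.

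Other large changes shared by both states were in less abundant genes. Npvf, a neuropeptide precursor, was at 57.9 to 87.4 normalized counts with the inhibitor and 0.927 to 12.6 without it. It passed the filter only through the libraries with the inhibitor, and no fold is given. Acetylcholinesterase and its anchor rose together. Ache, the enzyme that breaks down acetylcholine, was at 376 to 585 normalized counts with the inhibitor and 103 to 197 without it (1.84, adjusted p = 2.29e-06), and Colq, the collagen-like tail that tethers it to the matrix, was at 53.9 to 102 against 8.84 to 19.0 (2.43, adjusted p = 3.84e-05). Rgs16, which speeds the shut-off of G proteins, was at 168 to 255 normalized counts with the inhibitor and 26.5 to 53.7 without it (2.42, adjusted p = 1.65e-06). Dusp27, an atypical phosphatase family member, had a log2 fold change of 2.39 and Adamts16, a secreted metalloprotease, of 2.04, with no overlap of the libraries in either gene.

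Further genes of the 57, named after their values were seen, included signalling enzymes and secreted factors. Sphk1, which makes sphingosine-1-phosphate, had a log2 fold change of 1.46 with glutamate and 1.91 without. Nrtn, the neurotrophic factor neurturin, had 1.74 and 1.64, Adamts1, a matrix protease, 1.07 and 1.01, and Gadd45g, a stress-responsive growth arrest gene, 1.20 and 0.83. The cell junction protein Jup had 0.80 and 0.81, and Lynx1, a membrane-tethered modulator of nicotinic acetylcholine receptors, 0.87 and 0.80. The effects of the 2 states lay closest in Id3, a BMP-responsive inhibitor of differentiation factors, at 0.38 each. Sparc and Sept4 were among those with the most unequal effects (0.92 with glutamate against 0.43 without, and 1.15 against 0.54, with unadjusted p = 0.000101 and 0.000281 for the difference and no adjusted p under the threshold).

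**Figure D2:**
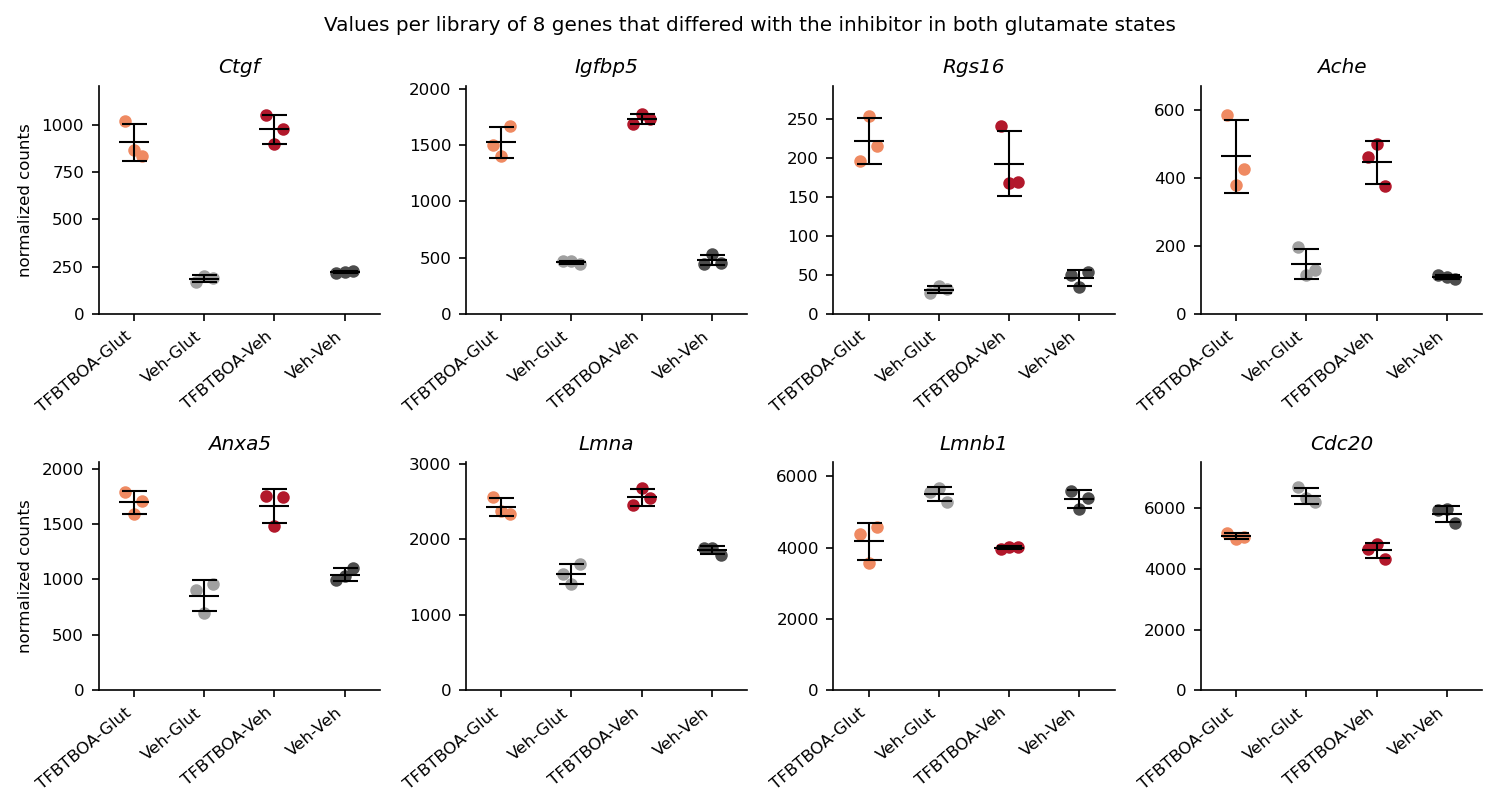
Normalized counts per library (points), with the mean and SD of 3 libraries (bars), for 8 genes that passed in both glutamate states. In each gene the libraries with the inhibitor lie apart from those without it, above in Ctgf, Igfbp5, Rgs16, Ache, Anxa5 and Lmna and below in Lmnb1 and Cdc20.

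The 4 genes lower in both states were Cdc20, Lmnb1, Rcc1 and Fam64a. Cdc20, the activator that lets the anaphase-promoting complex end mitosis, was at 4335 to 5182 normalized counts with the inhibitor (median 4906), against 5498 to 6696 without it (median 6084). Its fold was 0.793 (95% interval 0.744 to 0.846, adjusted p = 0.000237). Lmnb1, which codes for lamin B1 of the nuclear lamina, was at 3578 to 4569 with the inhibitor and 5074 to 5667 without it (log2 fold change -0.41, adjusted p = 0.000331). Rcc1, the chromatin-bound exchange factor of the GTPase Ran, was at 1751 to 1994 against 2173 to 2525 (-0.37, adjusted p = 0.000304). Fam64a, a proliferation-associated mitotic gene, was at 2859 to 3376 against 3928 to 4392 (-0.42, adjusted p = 0.000165). No library with the inhibitor reached the lowest library without it in any of these 4 genes, and the folds lay between 0.748 and 0.793.

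Gene lists are described by how many of their tested members passed, to be read against 3.89% of all genes higher and 2.98% lower, and by their median log2 fold change, which was 0.0037 over all genes tested. The lists were chosen with earlier results of these libraries known and are no independent evidence of a direction.

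Of the 39 mitosis genes tested, 23 were lower and none higher, and 38 had a negative log2 fold change (median -0.23, range -0.42 to 0.10). The median was -0.24 with glutamate and -0.21 without it. Ncapd2, a condensin subunit that compacts chromosomes, was at 3150.3 to 4077 normalized counts with the inhibitor and 4248 to 5362 without it (-0.42, adjusted p = 0.00127). Ccnb1, the cyclin that starts mitosis, was at 5706 to 6752 against 6962 to 8583 (-0.30, adjusted p = 0.00267). Prc1, which bundles the microtubules of the midzone, was at 2974 to 3817 against 3817 to 4645 (-0.32, adjusted p = 0.00389). Top2a, Kif11, Plk1 and Bub1b were also among those lower, at -0.30, -0.38, -0.23 and -0.33. The summed level of the list was 89701 to 98816 normalized counts in the 6 libraries with the inhibitor and 106636 to 118585 in the 6 without it, with no overlap. Leaving out any 1 library left 16 to 20 members lower and none higher.

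Promoters of genes that act in mitosis often hold a CHR element, the site of the MuvB complexes that repress them outside the cell cycle, beside CCAAT boxes bound by NF-Y. RefSeq windows of 300 bases, from 250 before to 50 after an annotated start, were available for 32 of the 39 mitosis genes. The letters TTTGAA, searched on both strands, occurred in 24 of the 32 windows (75.0%), against 18.2% of all 27025 RefSeq promoter windows, and the letters CCAAT in 27 of 32 (84.4%), against 38.0%. The windows of the ribosome biogenesis genes, a list with 19 of 44 members lower, held TTTGAA in 2 of 37 (5.41%) and CCAAT in 13 of 37 (35.1%). A match is a run of letters and was not tested as a site. Cdc20, Ncapd2 and Prc1 are shown as the mitosis genes of smallest p whose window holds the run, which is in capitals. Ccnb1 had no TTTGAA in its window. The windows lie on GRCm38.p6 at chr4:118437294-118437593, minus strand, for Cdc20, at chr6:125191537-125191836, minus strand, for Ncapd2 and at chr7:80294201-80294500, plus strand, for Prc1. The Ncapd2 window lies inside the RefSeq gene (125168007 to 125192100), so the start used for it is not the outer end of that gene.
Cdc20: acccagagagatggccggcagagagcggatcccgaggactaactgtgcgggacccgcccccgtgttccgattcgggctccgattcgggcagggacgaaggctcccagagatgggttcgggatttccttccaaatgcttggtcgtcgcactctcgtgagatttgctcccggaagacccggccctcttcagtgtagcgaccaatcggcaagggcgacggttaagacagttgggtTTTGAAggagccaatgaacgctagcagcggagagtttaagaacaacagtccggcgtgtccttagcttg
Ncapd2: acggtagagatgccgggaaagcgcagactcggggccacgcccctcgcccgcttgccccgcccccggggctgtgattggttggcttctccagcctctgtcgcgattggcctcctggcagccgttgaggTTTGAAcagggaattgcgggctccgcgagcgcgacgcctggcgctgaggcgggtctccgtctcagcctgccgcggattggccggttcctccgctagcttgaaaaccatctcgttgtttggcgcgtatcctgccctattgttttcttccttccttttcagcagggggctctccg
Prc1: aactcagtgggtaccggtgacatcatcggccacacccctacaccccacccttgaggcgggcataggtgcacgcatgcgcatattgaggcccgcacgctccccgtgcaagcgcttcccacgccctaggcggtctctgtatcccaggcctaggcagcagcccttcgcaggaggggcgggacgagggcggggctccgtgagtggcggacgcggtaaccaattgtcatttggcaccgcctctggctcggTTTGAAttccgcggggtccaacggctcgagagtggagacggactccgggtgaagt

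Of 43 DNA replication genes tested, 14 were lower and none higher, and 42 had a negative log2 fold change (median -0.19, with -0.22 in the presence of glutamate and -0.17 in its absence). Rrm2, the ribonucleotide reductase subunit that limits the supply of deoxynucleotides, was at 8330.4 to 10225 normalized counts with the inhibitor and 10554 to 11700.5 without it (-0.28, adjusted p = 0.00100). Mcm6, part of the replicative helicase, was at 5476 to 5909.7 against 6316 to 7054 (-0.22, adjusted p = 0.00507). Pold2, a subunit of DNA polymerase delta, had a log2 fold change of -0.35 and Uhrf1, which keeps DNA methylation through replication, of -0.23. Without Veh-Glut replicate 2 the lower members numbered 9.

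Regulators of the step before replication were called at close to the share of all genes. Of 21 G1 cyclins, CDKs and CDK inhibitors 1 was higher (4.76%), 1 lower (4.76%) and the median was 0.05. Ccnd2, the cyclin D that NSCs express strongly, was at 27923 to 29309 normalized counts with the inhibitor and 22531 to 27827 without it (0.19, adjusted p = 0.0156). Its effect was 0.30 with glutamate and 0.07 without, and it did not pass in both states. Cdk4, the kinase partner of Ccnd2, had a log2 fold change of -0.16 (adjusted p = 0.0239). That call was lost when replicate 1 of TFBTBOA-Veh, of Veh-Glut or of Veh-Veh was left out (adjusted p up to 0.0629). Myc was at -0.24 (adjusted p = 0.0404), and its call held only when TFBTBOA-Glut replicate 1, TFBTBOA-Veh replicate 2 or replicate 3 of Veh-Glut or Veh-Veh was left out, among the 12 fits with 1 library left out (adjusted p up to 0.0905).

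Nuclear envelope genes were called in both directions. Lmna, which codes for lamins A and C, was at 2335 to 2679 normalized counts with the inhibitor and 1404 to 1889 without it (log2 fold change 0.56, adjusted p = 3.99e-05), and it passed in both states, opposite to Lmnb1. Syne1, a nesprin that links the nucleus to actin, was also higher (0.48, adjusted p = 0.00835). Lower beside Lmnb1 were Nemp1, an inner nuclear membrane protein (-0.61), Lbr, the lamin B receptor (-0.38), and Tmpo, a lamina-associated protein (-0.33). In total 2 of 16 were higher and 4 lower.

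Genes that make ribosomes and charge tRNAs had negative medians. Of 44 ribosome biogenesis genes 19 were lower and none higher (median -0.21). Noc2l, which helps move the large subunit precursor out of the nucleolus, was at 2294 to 2892 normalized counts with the inhibitor and 2977 to 3410.5 without it (-0.32 in each state). Nop58, a core protein of the RNAs that guide methylation of ribosomal RNA, was at 2453 to 2988 against 3133 to 3481 (-0.34, adjusted p = 0.00133), and nucleolin, Ncl, at 14453 to 15762 against 16625 to 18288 (-0.21, adjusted p = 0.00358). The lower members numbered 12 without Veh-Glut replicate 2. The 39 genes of the ribosomal proteins themselves had medians of opposite sign in the 2 states, 0.15 with glutamate and -0.08 without it. Of the 39, 35 were positive with glutamate and 0 without, but members of a list are not independent replicates. Their summed level was 217426 to 309236 normalized counts with the inhibitor (median 241776) and 223129 to 263185 without it (median 241188). The pooled median was 0.03, with none past the test and 1 at an unadjusted p under 0.05.

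The cytosolic aminoacyl-tRNA synthetases, 20 in number, had 10 members lower and 1 higher, with a median log2 fold change of -0.38 with glutamate and -0.13 without it. Mars, for methionine, was at 3534 to 4130.2 normalized counts with the inhibitor and 4012 to 6071 without it (-0.35, adjusted p = 0.00205). Its effects were -0.50 with glutamate and -0.20 without. Cars, for cysteine, had effects of -0.56 with glutamate and -0.21 without, and Eprs, for glutamate and proline, of -0.52 and -0.17. Qars, for glutamine, was the member that rose (0.32, adjusted p = 0.0164), at 915 to 1044 normalized counts with the inhibitor and 709 to 935 without it. Its effects were 0.51 with glutamate and 0.14 without, and it did not pass in both states.

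Amino acid metabolism had lower members too. Of 16 enzymes of serine, glycine and one-carbon metabolism 8 were lower and none higher (median -0.28 with glutamate and -0.15 without). Shmt1, the cytosolic serine hydroxymethyltransferase, had effects of -0.30 with glutamate and -0.39 without (pooled adjusted p = 0.00278), whereas Mthfd2, its mitochondrial partner in folate chemistry, had effects of -0.68 and -0.14. The members lower numbered 4 on leaving out either TFBTBOA-Glut replicate 3 or replicate 1 of Veh-Glut and 5 when TFBTBOA-Glut replicate 1 or one of Veh-Glut replicates 2 and 3 was. The integrated stress response list had 5 of 20 members lower and none higher, with medians of -0.37 and -0.05. Those 5 were Asns, Psat1, Psph, Eif4ebp1 and Mthfd2, and the count was 2 without Veh-Glut replicate 1, 2 or 3 or TFBTBOA-Glut replicate 1 or 3, and 3 without TFBTBOA-Glut replicate 2 or Veh-Veh replicate 2.

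Cholesterol synthesis genes had unlike medians in the 2 states. The median was -0.38 with glutamate and 0.02 without it, and 2 of 23 members were lower on the pooled effect, Sc5d and Fdft1, whose calls were lost in 7 and 10 of the 12 fits with 1 library left out (adjusted p up to 0.0883 and 0.121). The count of lower members was 5 without Veh-Veh replicate 2 and 0 when Veh-Veh replicate 3 or any 1 of the 6 libraries given glutamate was left out. Fatty acid synthesis genes also had medians of opposite sign, -0.25 with glutamate (5 of 20 positive) and 0.13 without it (14 of 20 positive). On the pooled effect 1 of the 20 was higher, Fads3, a desaturase family member (0.57), and 2 lower, Elovl2, which extends polyunsaturated fatty acids (-0.40, adjusted p = 0.0158), and Me1, a source of NADPH (-0.20, adjusted p = 0.0252, lost without Veh-Veh replicate 1 or 3, Veh-Glut replicate 3 or TFBTBOA-Veh replicate 2 or 3). The call of Fads3 was lost without TFBTBOA-Glut replicate 3 (adjusted p = 0.0516).

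**Figure D3:**
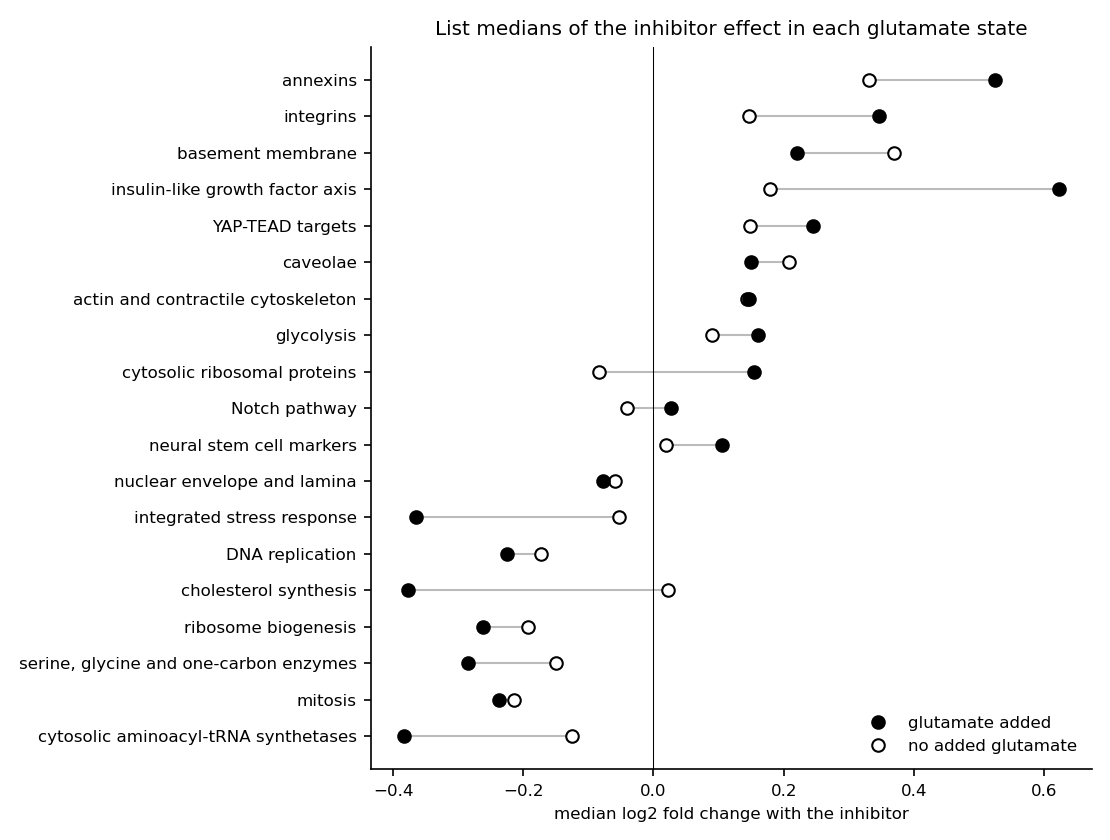
Median log2 fold change with the inhibitor over the tested members of 19 gene lists, with glutamate (filled) and without it (open). The points lie close in mitosis (-0.24 and -0.21) and actin (0.15 and 0.14) and far apart in cholesterol synthesis (-0.38 and 0.02).

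On the side of higher genes stood proteins of the cell surface, its skeleton and its matrix. All 10 annexin list members tested had a positive log2 fold change (median 0.41) and 4 were higher. Annexins bind membranes when calcium rises. Anxa5 was at 1484 to 1791 normalized counts with the inhibitor and 699 to 1105 without it (0.83, adjusted p = 3.84e-05), and Anxa2 at 5508 to 6764 against 3632 to 5139 (0.48, adjusted p = 0.000123), both in each state. Anxa6 (0.32) and the annexin partner S100a11 (0.61, with 1.03 in the presence of glutamate and 0.19 in its absence) were also higher. The summed level of the list was 18985 to 20626 normalized counts with the inhibitor and 12453 to 16841 without it.

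Caveolae are small pits of the plasma membrane coated by caveolins and cavins. Of 11 genes 5 were higher and none lower (median 0.18). Besides Ptrf these were Ehd4, a membrane-shaping ATPase (0.43, adjusted p = 9.67e-05), the cavin Sdpr (0.41), Cav2 (0.28) and Cav1. Cav1 was at 49.8 to 76.8 normalized counts with the inhibitor and 0 to 27.6 without it, with 1 Veh-Veh library at 0, and its call was lost without Veh-Glut replicate 2, TFBTBOA-Veh replicate 1 or TFBTBOA-Glut replicate 3 (adjusted p up to 0.0583). The list had 3 members higher without each of those libraries. Actin and contractile genes had 7 of 23 higher and none lower (median 0.13), among them Myl9, a light chain of non-muscle and smooth muscle myosin, at 278 to 429 normalized counts with the inhibitor and 177 to 226 without it (0.73, adjusted p = 0.000918), the actin-binding Cald1 (0.34) and the crosslinker Actn4 (0.28).

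Targets of the Hippo pathway co-activator YAP and its TEAD transcription factors include Ctgf. Of 23 tested 5 were higher and none lower (median 0.25). Crim1, a transmembrane protein that binds BMPs, was at 707 to 877 normalized counts with the inhibitor and 303 to 525 without it (1.06, adjusted p = 0.000103). Amotl2, an inhibitor of YAP that is also its target, had a log2 fold change of 0.35, Lats2, a kinase that restrains YAP, of 0.38, and Arhgef17 of 0.53. The call of Arhgef17 was lost without TFBTBOA-Glut replicate 1 or 3 (adjusted p up to 0.0524), and without either of them 3 members of the list were higher.

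The basement membrane had 17 of 19 members with a positive log2 fold change (median 0.35) and 3 higher. Col18a1, the source of endostatin, was at 3115 to 5233 normalized counts with the inhibitor and 1863 to 2877 without it (0.72 in each state, adjusted p = 1.82e-05). The laminin chains Lama4 (0.64) and Lamc1 (0.37) were higher with overlap between the libraries. Of 12 collagens of the fibrillar and associated kinds 3 were higher, Col28a1 (0.77), Col5a1 (0.62) and Col12a1 (0.99). Matricellular proteins, which sit in the matrix and signal to cells, had 4 of 16 higher, Ctgf, Thbs1, Sparc and Smoc2. Thbs1, thrombospondin 1, was at 258 to 455 normalized counts with the inhibitor and 85.3 to 163 without it (1.47, adjusted p = 8.31e-05), and Sparc at 15015 to 17382 against 7993 to 11985 (0.68, adjusted p = 7.25e-05). Sparcl1 was called lower (-0.17, adjusted p = 0.0434), a call that held only without Veh-Veh replicate 2 among the 12 fits with 1 library left out (adjusted p up to 0.0925). Integrins, the receptors of the matrix, had 11 of 13 positive (median 0.37). The 2 called were Itga1, whose call held only without Veh-Glut replicate 3 or TFBTBOA-Veh replicate 1, and Itga3, whose call held only without replicate 2 of TFBTBOA-Glut, Veh-Glut or Veh-Veh (adjusted p up to 0.101 and 0.128).

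**Figure D4:**
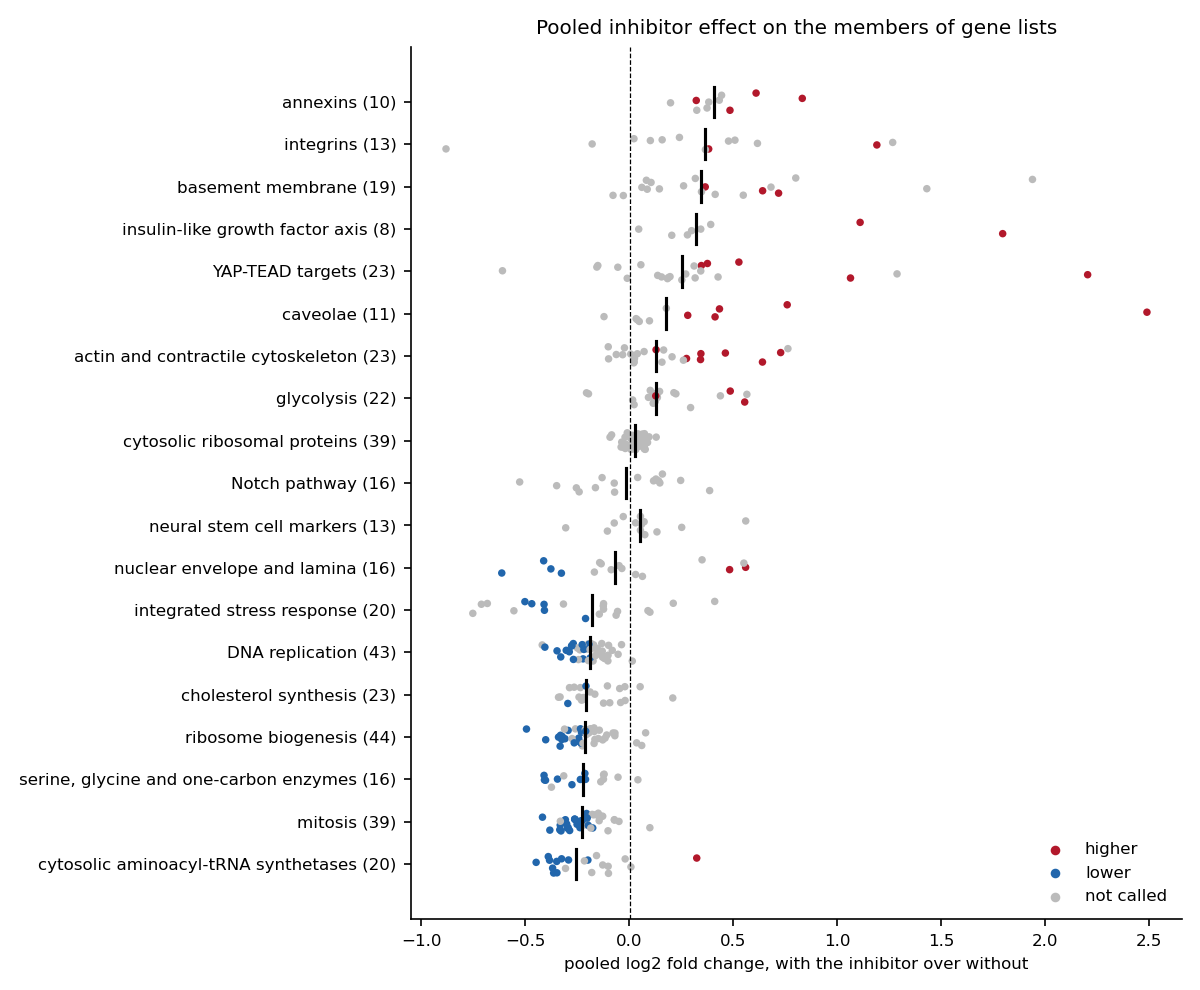
Pooled log2 fold change with the inhibitor for each tested member (points) of 19 gene lists, with the number tested in brackets, the list median (bar) and the median of all genes (dashed line). Called members lie on 1 side in most of the lists drawn, higher in annexins (4 of 10) and lower in mitosis (23 of 39). They lie on both sides in the nuclear envelope list (2 higher and 4 lower of 16) and the synthetases (1 higher and 10 lower of 20). The lists drawn are a selection. Several others, such as the FGF and EGF receptor pathway (3 higher and 2 lower of 21), also had calls on both sides.

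All 8 tested genes of the insulin-like growth factor axis had a positive log2 fold change (median 0.32, with 0.62 in the presence of glutamate and 0.18 in its absence), and 5 had an unadjusted p under 0.05. Of these Igfbp5 and Igfbp7 were higher, the second at 62.4 to 96.4 normalized counts with the inhibitor against 20.0 to 55.6 without it (1.11, adjusted p = 0.00918). Without TFBTBOA-Veh replicate 2 the list had 4 members higher. The list of the FGF and EGF receptor pathway had 3 of 21 members higher and 2 lower (median 0.08). Fgfr2, a receptor of fibroblast growth factors, was at 720.5 to 1072 normalized counts with the inhibitor and 499 to 657 without it (0.62, adjusted p = 0.00127), and Fgf1, a ligand, at 976 to 1251 against 647 to 749.6 (0.58, adjusted p = 0.000241). The other higher member was Dusp6, a phosphatase that restrains ERK, at 0.13 (adjusted p = 0.0338), and lower were Myc and Erbb4. Erbb4, a neuregulin receptor, was at 34.4 to 77.4 normalized counts with the inhibitor and 74.7 to 144 without it (-0.87, adjusted p = 0.0343). The calls of Dusp6 and Erbb4 were each lost in 8 of the 12 fits with 1 library left out (adjusted p up to 0.0851 and 0.0887), and held for Dusp6 only on omitting Veh-Veh replicate 1 or 2, TFBTBOA-Veh replicate 3 or TFBTBOA-Glut replicate 2 and for Erbb4 only on omitting Veh-Veh replicate 3, TFBTBOA-Veh replicate 2 or 3 or TFBTBOA-Glut replicate 3. In the BMP and TGF-beta pathway 3 of 21 were higher, Tgfbr2, Id3 and Nbl1, a secreted BMP antagonist (0.67). Smad5, a signal carrier of BMPs, was lower (-0.28, adjusted p = 0.0231), a call lost when TFBTBOA-Glut replicate 2, TFBTBOA-Veh replicate 1 or 2 or replicate 3 of Veh-Glut or Veh-Veh was left out. No Notch pathway gene of 16 passed the test in limma and 2 had an unadjusted p under 0.05.

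Of 24 immediate early genes 2 transcription factors were lower and none was higher. Klf10 was at 3293 to 4206 normalized counts with the inhibitor and 4737 to 5424 without it (-0.47, adjusted p = 0.000182). Egr1 was at 2632 to 3171 against 3395 to 4089 (-0.37, adjusted p = 0.00145).

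Of the genes for the EAATs themselves, 1 of the 4 tested passed. Slc1a3, coding for EAAT1, was at 28660.2 to 32484 normalized counts with the inhibitor and 29049 to 33235 without it, with a fold of 0.980 (95% interval 0.917 to 1.05). Slc1a2, coding for EAAT2, was at 260.2 to 408 against 216 to 368 (fold 1.09, interval 0.892 to 1.34), and Slc1a6, coding for EAAT4, at 13.1 to 53.9 against 16.9 to 49.1. None of these 3 passed the test (adjusted p of 0.783, 0.656 and 0.85), and the intervals bound the changes these libraries leave possible. Slc1a1, coding for EAAT3, was higher, at 72.0 to 110.1 normalized counts with the inhibitor and 36.8 to 51.7 without it (log2 fold change 0.95, adjusted p = 0.00323), with effects of 0.96 with glutamate and 0.93 without. Slc1a7, coding for EAAT5, was below the filter, with 11 of 12 libraries at 0.

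Around the transporters, Glul, which makes glutamine from glutamate, was at 1415 to 1556 normalized counts with the inhibitor and 1006 to 1160.1 without it (0.46, adjusted p = 0.000247). Gpt2, which passes the amino group of glutamate to pyruvate, was lower, at 6291 to 7566 against 8599 to 9624 (-0.34, adjusted p = 0.000752). Of 14 genes of glutamate and glutamine metabolism 1 was higher and 3 lower. The others lower were Aldh18a1 (-0.77 with glutamate and -0.12 without) and Asns (-0.90 and -0.04). The call of Asns was lost in 8 of the 12 fits with 1 library left out. Of 16 glutamate receptor genes Grm3 and Grm5, both metabotropic, were lower. Grm3 was at 142 to 193 normalized counts with the inhibitor and 215 to 278 without it (-0.48, adjusted p = 0.0191, and 0.0539 without Veh-Glut replicate 3), and the call of Grm5 (-0.33, adjusted p = 0.0304) held only without Veh-Veh replicate 1 or 2, Veh-Glut replicate 1, TFBTBOA-Veh replicate 3 or TFBTBOA-Glut replicate 3. Among amino acid carriers Slc6a6, the taurine transporter, was at 363 to 783 normalized counts with the inhibitor and 201 to 354 without it (1.11, adjusted p = 0.00145), and Slc7a1, a carrier of arginine and lysine, had a log2 fold change of -0.43 (adjusted p = 0.00386).

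Glycolysis genes had 20 of 22 positive with 3 higher, Ldhb, a lactate dehydrogenase subunit, at 7146 to 8053 normalized counts with the inhibitor and 5089.9 to 6111 without it (0.49, adjusted p = 3.13e-05), Pfkp (0.56) and Ldha (0.13, lost without TFBTBOA-Glut replicate 1, adjusted p = 0.0525). Of the antioxidant and iron genes Sod3, the extracellular superoxide dismutase (0.78), Cp, the copper-binding ferroxidase ceruloplasmin (0.47), and Gpx1, a glutathione peroxidase (0.34), were higher and Hmox1 was lower (-0.26, a call that held only without Veh-Glut replicate 2 or 3 or TFBTBOA-Glut replicate 1 or 2). In the apoptosis list Bcl2l1, a survival gene, was at 1881 to 2092 normalized counts with the inhibitor and 1308 to 1609 without it (0.51, adjusted p = 7.47e-05), and Casp6, a caspase, had a log2 fold change of 0.47 (adjusted p = 0.0129), of 21 genes tested.

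Lists of markers of neighbouring cell types differed in how many members passed the test. Among 16 astrocyte markers Clu (0.50) and Glul were higher and S100b and Sparcl1 lower. This was 12.5% in each direction, against 3.89% higher and 2.98% lower of all genes, and 7 had an unadjusted p under 0.05. The summed level of the list was 50166 to 54144 normalized counts with the inhibitor and 50013 to 53293 without it. S100b was at 58.0 to 109 normalized counts with the inhibitor and 125 to 175 without it (-0.88, adjusted p = 0.00312). Of 11 neuroblast and neuron markers Prox1, a factor of granule neurons, was called (0.43, adjusted p = 0.0395, which held only on leaving out Veh-Veh replicate 3, Veh-Glut replicate 1, TFBTBOA-Veh replicate 2 or TFBTBOA-Glut replicate 3). None of the 7 oligodendrocyte lineage markers passed in limma, with 1 at an unadjusted p under 0.05.

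The 4 called genes whose effects differed most between the states were all of low abundance. Stk32a, a kinase, had a log2 fold change of 2.56 with glutamate and 0.51 without it, whereas Fgl2, a secreted fibrinogen-like protein, had 1.08 and 3.18. Fgl2 was at 36.7 to 120 normalized counts with the inhibitor and 0.871 to 39.2 without it. The value of 0.871 was that of Veh-Veh replicate 1, with replicates 2 and 3 at 39.2 and 26.3, so its effect without glutamate leans on 1 library near 0. Scg2, a granin of secretory granules, was at 12.3 to 77.4 normalized counts with the inhibitor and 0 to 26.4 without it, and Gimap6, a small GTPase, at 18.4 to 33.9 normalized counts with the inhibitor and 0 to 5.56 without it, where 4 of the 6 libraries, all of Veh-Veh among them, were at 0. Both passed the filter only through the libraries with the inhibitor, and no fold is given. None of these differences passed the adjusted test (adjusted p of 0.424 to 0.763 from limma). The pooled calls of Fgl2 and Scg2 were lost in 8 of the 12 fits with 1 library left out and that of Stk32a without TFBTBOA-Glut replicate 2 or 3 (adjusted p up to 0.0965, 0.0747 and 0.052).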

How the data were processed

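Cells were plated at 75000 per well, and RNA of a harvested subset of each well was sequenced after SMART-Seq HT library preparation. Per the labels and the study's methods, the authors aligned reads with HISAT2 2.0.6 to GRCm38p4 (the submitters' processing notes list GRCh38, and CASAVA 1.8.2), counted reads per gene with featureCounts and divided them by size factors, and this normalized signal is the deposited unit. Counting was stated to use strand although the kit does not mark it, so overlapping and antisense genes may share reads. The table held 50600 entries, of which 183 shared a symbol.

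All 12 libraries were fitted with limma 3.58.1 (R 4.3.3) on log2(normalized count + 1), with an inhibitor and a glutamate term and a trended variance, for genes with a mean of at least 10. Adjusted p is Benjamini-Hochberg over all genes tested, at 0.05. Shared changes took the larger p of the 2 state effects of the same sign from a fit of the 4 group means. The difference between states was the interaction term. Scripts were tested on simulated data.

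Whole reads were recovered from the deposited signal in 10 libraries (100% of values whole within 0.05 of a read, 13064545 to 18372691 reads), while TFBTBOA-Veh replicates 2 and 3 were left out because 1 read was worth 0.998 and 1.01, too near 1 to tell whole reads from whole values. On those reads edgeR 4.0.16 called 435 genes higher and 350 lower, and DESeq2 1.42.0 called 663 and 698. Depth limits the precision of low genes. Other alternatives were pseudocounts, filters, TMM scaling, a replicate block, other covariates and leaving out each library.

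Genes were named by rule: among genes called in both states with no overlap, the 10 of smallest p and the 6 of largest change in each direction, up to 4 called members of smallest p per list and any called member against its majority, the EAAT genes, the interaction calls and the 4 called genes whose state effects differed most. Other list members and genes of the 57 were named after their values were seen. The members, lists and tests were chosen with earlier results of these data known. Promoter windows are from RefSeq (GRCm38.p6).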

Additional observations from a re-analysis of the deposited data

Results flagged for a closer look

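The effect of the inhibitor differed between the glutamate states in Hmgcs1 and Cyp51, both of cholesterol synthesis, by the interaction term of limma (adjusted p = 0.0263 each). The effect with glutamate minus that without it was -0.59 on the log2 scale in Hmgcs1 and -0.54 in Cyp51. In Hmgcs1 the effect was -0.54 with glutamate and 0.05 without, and in Cyp51 it was -0.31 and 0.23. The number of genes with such a difference was 2 on leaving out either TFBTBOA-Glut replicate 3 or replicate 1 of Veh-Glut, 1 without Veh-Veh replicate 3 and 0 on omitting each of the other 9 libraries in turn.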

How the results depend on the processing

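No called gene changed sign under any alternative, and 649 to 977 of the 980 stayed called. Without the filter, which adds genes to the adjustment, 261 genes were lower, 0 were lower in both states and 0 differed between states. With a minimum mean of 50, 7 genes were lower in both states. On the 10 libraries with recovered reads, limma called 7 genes higher and 0 lower in both states and 0 differing between states, edgeR 13, 0 and 0, and DESeq2 44, 1 and 1. These 10 hold 1 TFBTBOA-Veh library, which is assumed to vary like the other groups. DESeq2 called 698 genes lower on the pooled effect. Leaving out 1 library gave 418 to 551 genes higher and 257 to 446 lower, 24 to 52 higher and 0 to 4 lower in both states, and 0 to 2 differing between states. The cause of these moves was not tested, apart from the fewer libraries or added genes that the alternatives themselves bring.

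Replicate numbers were shared by the groups, and libraries of the same number were at most weakly alike. Deviations of same-numbered libraries correlated at -0.043 to 0.084 (median 0.025) and those of others at -0.110 to 0.085 (median -0.020). Pairs of replicate 3 libraries were all positive, at 0.057 to 0.084. In total 7 of 12 libraries were closest to their own number. With a replicate block, 620 genes were higher and 494 lower, 71 higher and 10 lower in both states, and 14 differed between states. Counts of low genes limit the precision, which is set by 3 wells per group.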
